A study of Mus musculus with 2 samples.

Results

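The enzymes and transporters by which neurons make, load and take back GABA, glycine and glutamate were measured as transcripts in the embryonic mouse midbrain. The 8 genes were Gad1, Gad2, Slc32a1, Slc6a5, Slc6a9, Slc17a6, Slc17a7 and Slc17a8, found by symbol among 55536 annotated genes, and they hold 38 annotated transcripts. The tissue was midbrain of healthy B6NCrl mice at embryonic day 12.5, male and female embryos together, with no treatment and no altered allele. Replicate 1 pooled 120 embryos and replicate 2 pooled 88, and the 2 libraries form the only group, so no comparison of conditions exists. An SD over n = 2 covers only the spread between these 2 pools, and in whole tissue fewer cells of a type and less RNA per cell cannot be told apart.

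GABA is made from glutamate by the glutamate decarboxylases, and GABA and glycine are loaded into synaptic vesicles by the same transporter, while glutamate is loaded by a separate family. Glycine transporters of the plasma membrane return released glycine to cells. At this stage the midbrain holds dividing neuroepithelium beside young GABAergic and glutamatergic neurons, and Gad1 is known in embryos for splice forms that include an extra exon with a stop codon and encode a short protein without the catalytic part.

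The annotation held that exon in 3 of the 8 Gad1 transcripts, and the bases on either side of the splice are shown because the forms differ there. Positions are those of assembly GRCm38 (mm10), plus strand. Both sequences begin with the last 30 bases of the same coding exon (chr2:70579172-70579201). The embryonic form goes on into the extra exon (chr2:70584420-70584456 is shown), where the capitals mark the stop codon at 70584454 to 70584456. The full-length form skips that exon and goes on into the next coding exon (chr2:70585834-70585870 is shown).
Gad1-203, embryonic junction: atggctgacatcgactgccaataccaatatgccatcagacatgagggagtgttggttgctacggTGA
Gad1-201, full-length junction: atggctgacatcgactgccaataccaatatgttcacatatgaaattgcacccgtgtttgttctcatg
The extra exon lies in an intron of 6632 bases and adds 34 coding bases before the stop. It measures 80 bases in Gad1-203, 181 in Gad1-207 and 702 in Gad1-205, and is the last exon of the latter pair. The coding sequence of these forms has 223 codons, against 593 in the full-length transcript. Gad1-205 and Gad1-207 are annotated as protein-coding, but Gad1-203 as subject to nonsense-mediated decay.

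A further pair of sequences sets apart the start of Gad1-206, a transcript annotated without a coding sequence. In capitals are the bases that differ, from the exon before the junction (chr2:70563881-70563910 in Gad1-201, chr2:70566424-70566453 in Gad1-206). The lower-case bases are the shared exon that follows (chr2:70567186-70567215).
Gad1-201, start of the shared exon: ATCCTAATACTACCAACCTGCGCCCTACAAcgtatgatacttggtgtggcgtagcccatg
Gad1-206, start of the shared exon: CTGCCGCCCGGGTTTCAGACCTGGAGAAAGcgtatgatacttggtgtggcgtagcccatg
Gad1-206 begins 3′ of the exon that holds the start codon of the full-length form, and its own first exon has 77 bases. From there on it has the same exons as Gad1-201: the pair share 2919 bases, and 436 bases of Gad1-201 lie outside Gad1-206.

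**Figure D1:**
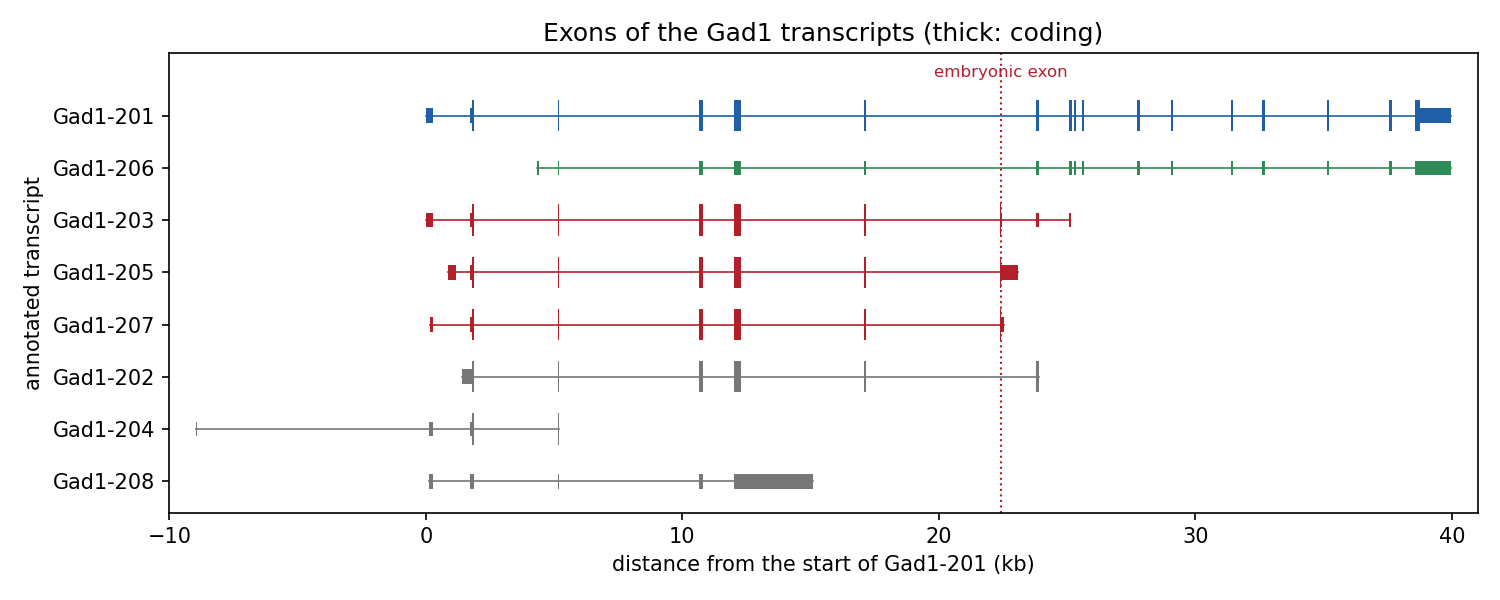
Exons of the 8 annotated Gad1 transcripts, drawn to scale along the distance from the start of Gad1-201 in kb, with coding parts thick and the other exon parts thin. The dotted line marks the embryonic exon, which Gad1-203, Gad1-205 and Gad1-207 hold and Gad1-201 and Gad1-206 skip.

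The libraries held 29056772 and 37122519 counts on annotated genes in replicates 1 and 2. All 6 midbrain identity genes on the list used were detected in both (Otx2, the highest, at 143 TPM on average), as were all 9 pan-neuronal genes and all 8 progenitor genes. So were 9 of 10 telencephalic and 6 of 7 diencephalic genes, but only 1 of 10 of the hindbrain and spinal cord. Detection of these markers therefore does not set midbrain apart from forebrain. TPM is transcript abundance per length, with the same sum over all rows of either library, and a gene is called detected here at 1 TPM or more in both. By that limit 13083 of 22028 protein-coding genes were detected.

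Of the 8 genes, 5 were detected: Gad2, Slc17a6, Gad1, Slc6a9 and Slc32a1, in falling order of level. Summed over their transcripts, the genes of the GABA-synthesising enzymes and the glutamate transporter Slc17a6 stood far above the vesicular GABA and glycine transporter. Slc17a7, Slc17a8 and Slc6a5 stayed under 1 TPM in both libraries. In the order of levels the 2 libraries of neighbouring genes overlapped for Gad2 with Slc17a6 and for Slc17a7 with Slc17a8, and for no other pair of neighbours.

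Gad2, the decarboxylase associated with synaptic terminals (ENSMUSG00000026787.3, chromosome 2, 22622205 to 22693874, plus strand), stood at 50.5 TPM in replicate 1 and 42.5 in replicate 2, or 46.5 ± 5.64 (SD, n = 2). Of all protein-coding genes, 82.7% stood lower. Gad1, the decarboxylase that supplies most GABA in the cell body (ENSMUSG00000070880.10, chromosome 2, 70553072 to 70602014, plus strand), stood at 20.6 and 20.8 TPM, or 20.7 ± 0.120. The Gad2 level was thus 2.45 times that of Gad1 in replicate 1 and 2.05 times in replicate 2. Gad1 held 29.0% and 32.8% of their summed TPM. Per length of the longest protein-coding transcript of each, the ratio was 1.56 and 1.45. On that scale Gad1 stood at 17.2 and 15.3 TPM, or 16.2 ± 1.31. The near-equal deposited TPM of Gad1 arose with unequal model lengths, 2811 bases in replicate 1 and 2499 in replicate 2. Its SD of 0.120 therefore understates the spread between the pools.

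Slc32a1, the vesicular transporter shared by GABA and glycine (ENSMUSG00000037771.11, chromosome 2, 158610767 to 158615748, plus strand), was lower than both enzyme genes, at 3.24 and 2.50 TPM, or 2.87 ± 0.523. It rested on 163.43 and 159 counts. Summed over all its transcripts, the Gad1 level was 6.36 and 8.32 times that of Slc32a1. The full-length Gad1-201 alone stood at 7.41 and 1.89 TPM, below Slc32a1 in replicate 2. The higher level in both pools thus held for the Gad1 gene, and not for its full-length form by itself.

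The glycine genes parted. Slc6a9, the glycine transporter known from glia and progenitors (ENSMUSG00000028542.17, chromosome 4, 117834506 to 117875198, plus strand), stood at 9.45 and 8.15 TPM, or 8.80 ± 0.919. Slc6a5, the glycine transporter that marks glycinergic neurons (ENSMUSG00000039728.15, chromosome 7, 49910146 to 49963856, plus strand), stood at 0.06 TPM in each, from 8 and 3 counts. Exact Poisson 95% intervals for those counts ran from 3.45 to 15.8 and from 0.619 to 8.77, and cover counting error only. The equal TPM values arose from unequal model lengths: the counts were assigned to a transcript of 7065 bases in replicate 1 and to one of 2409 bases in replicate 2. Glycinergic neurons are known chiefly from hindbrain and spinal cord. Of the marker genes of those regions, Hoxa4 and Hoxb4 were listed at 0 in both libraries.

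Among the vesicular glutamate transporters, Slc17a6 carried nearly the whole signal. Slc17a6, the form known from midbrain, thalamus and brainstem (ENSMUSG00000030500.6, chromosome 7, 51622006 to 51671119, plus strand), stood at 45.1 and 41.3 TPM, or 43.2 ± 2.70, and held 96.9% and 97.8% of the TPM of the 3 genes. Slc17a7, the form that dominates in mature cortex (ENSMUSG00000070570.5, chromosome 7, 45163949 to 45176142, plus strand), stood at 0.78 and 0.48 TPM from 33 and 32 counts. Slc17a8, the form found in scattered populations that often use another transmitter too (ENSMUSG00000019935.16, chromosome 10, 89574020 to 89621253, minus strand), stood at 0.64 and 0.46 TPM from 43 and 40 counts. Slc17a6 was 57.8 and 86.0 times as high as Slc17a7, and 70.4 and 89.7 times as high as Slc17a8.

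Which gene led depended on the length by which counts were divided. A gene's deposited TPM sums over its transcripts, and in Gad2 the short Gad2-202, a transcript of 721 bases without a coding sequence, took 52.6% and 53.8% of the TPM from 10.9% and 11.4% of the counts. Of its bases, 589 also belong to Gad2-201, the coding transcript of 5744 bases. With each gene's counts divided by the length of its longest protein-coding transcript, a calculation added after the values had been seen, Gad2 stood at 26.9 and 22.2 TPM. Slc17a6 stood at 43.6 and 40.2 TPM and led Gad2 by 1.62 and 1.81 times, where the deposited values had given ratios of 0.892 and 0.970. On the same scale Gad1 stood at 17.2 and 15.3 TPM and Slc6a9 at 6.36 and 6.46. The order from Gad1 downward was the same on both scales.

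**Figure D2:**
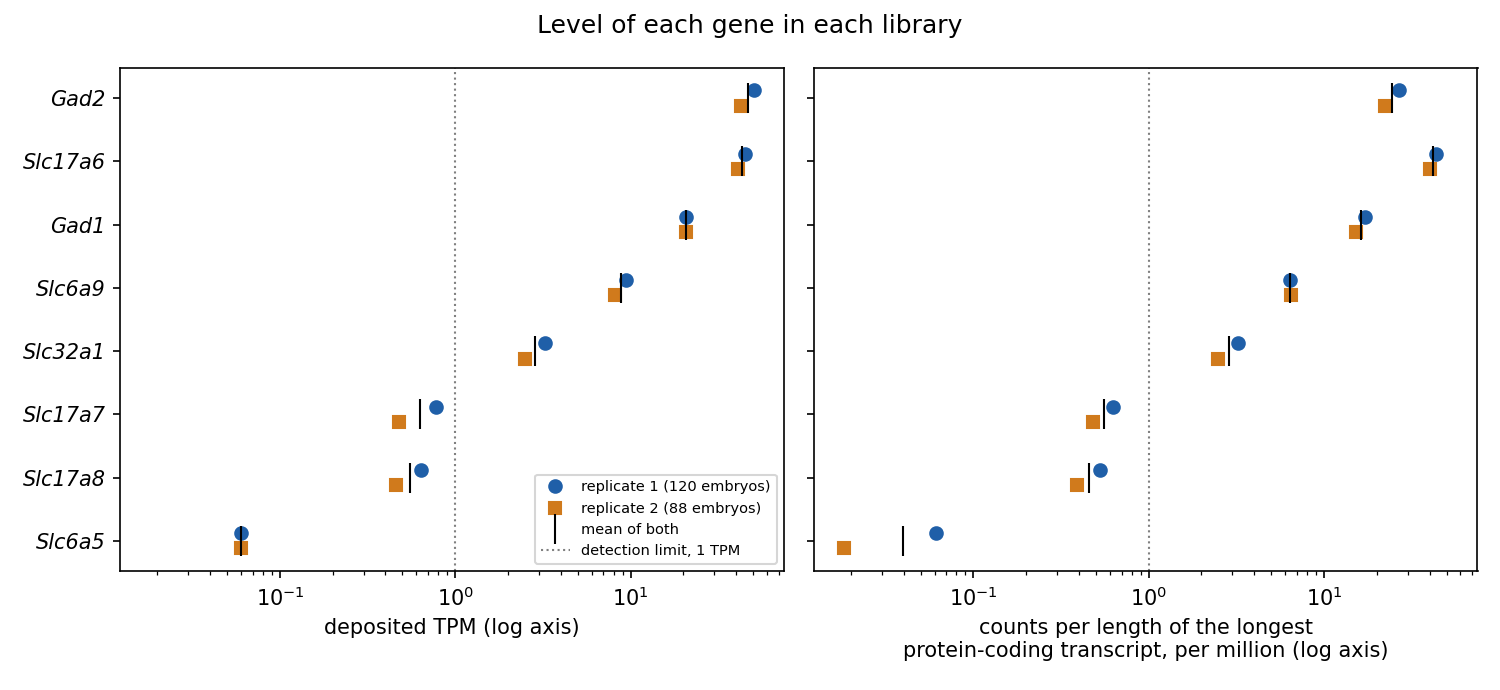
Level of each of the 8 genes in replicate 1 (circles) and replicate 2 (squares) on log axes, with the mean as a bar and the detection limit of 1 TPM dotted; the left panel shows deposited TPM and the right panel the same counts per length of the longest protein-coding transcript. Gad2 and Slc17a6 overlap on the left, and Slc17a6 leads by 1.62 and 1.81 times on the right.

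In Gad1, transcripts with the embryonic exon took 18.0% of the gene's TPM in replicate 1 and 23.9% in replicate 2, or 20.98% ± 4.16 (SD, n = 2), from 109.82 and 165.69 counts. Most of that was Gad1-205, in which the exon is the last one, at 17.4% and 14.9%. Gad1-203 took 0% in replicate 1 and 9.05% in replicate 2, and Gad1-207 was at 0.63% and 0%. The embryonic forms therefore were present in both pools, at 3.72 and 4.97 TPM in sum. The intervals in the authors' tables for Gad1-203 were 5.42e-06 to 0.809 TPM in replicate 1 and 0.827 to 2.93 TPM in replicate 2. Those of Gad1-207, from 2.24 and 0 counts, overlapped, at 2.75e-05 to 2.11 and 2.54e-07 to 0.655 TPM. A difference between the pools was thus not shown for Gad1-207.

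The full-length Gad1-201, the form of the adult enzyme, took 35.9% of Gad1 TPM in replicate 1 and 9.08% in replicate 2. Gad1-206 took 38.6% and 56.5%, in the opposite order. Their sum was closer between pools, at 74.6% and 65.6%, or 70.1% ± 6.34, from 881.3 and 947.18 counts. The pair differ at their 5′ ends and share the exons that follow, so reads further 3′ were divided between them by the quantifier's model, and the intervals in the authors' tables were wide: 2.95 to 8.41 TPM for Gad1-201 in replicate 1 and 0.0000239 to 3.25 TPM in replicate 2. Gad1-202, Gad1-204 and Gad1-208 held the remaining 7.40% and 10.5%. Read to the letter, the rule used to assign forms would also have counted Gad1-206 as embryonic, since its first exon lies in an intron between coding exons. The embryonic share would then be 56.7% and 80.4%. Gad1-206 was set apart after its structure had been seen, because it lacks the exon with the stop codon shown above.

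**Figure D3:**
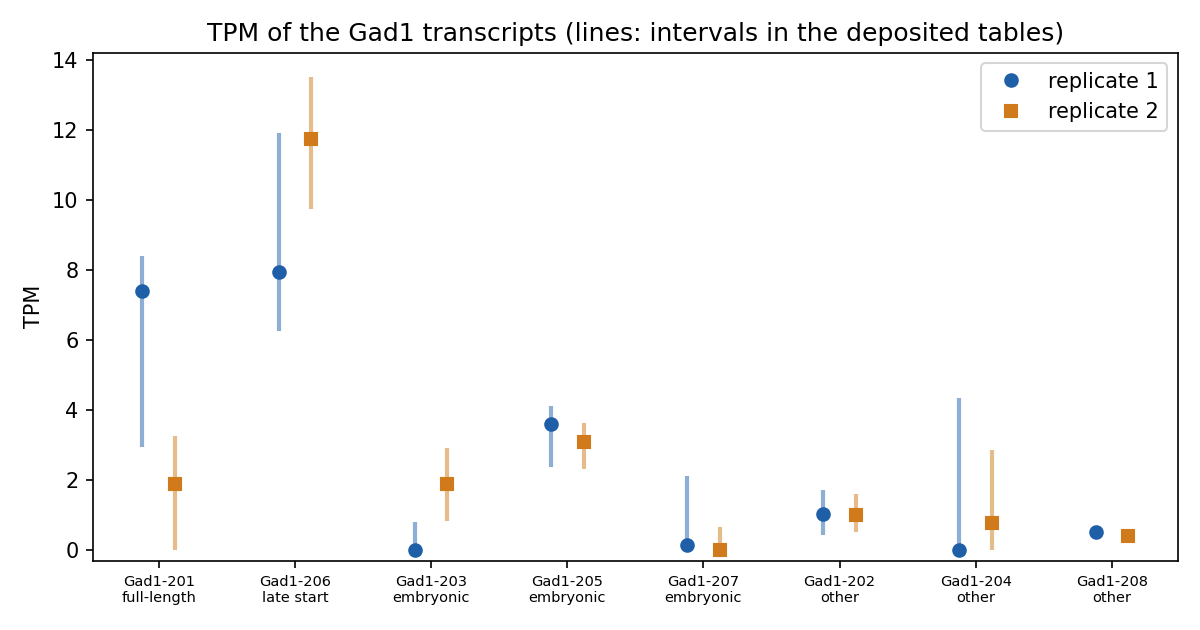
TPM of each Gad1 transcript in replicate 1 (circles) and replicate 2 (squares); the vertical lines are the intervals that the deposited tables give around the posterior mean TPM. Gad1-201 stands at 7.41 TPM in replicate 1 and 1.89 in replicate 2, Gad1-206 at 7.96 and 11.8, and Gad1-205 at 3.59 and 3.09.

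Of the other genes, Slc6a9 had the most annotated transcripts, 12, of which 9 held counts, against 8 for Gad1. Slc17a6-201 took 93.3% and 94.2% of Slc17a6 TPM, and Slc17a8-201 took 70.2% and 72.8% of Slc17a8. Slc6a9 was divided mainly between Slc6a9-202, with 39.1% and 45.1%, and Slc6a9-201, with 22.2% and 32.9%. Both encode 633 codons and start at different 5′ ends. In Slc17a7 the leading transcript differed between libraries: Slc17a7-202 led in replicate 1 with 42.4%, while Slc17a7-201 took 100% in replicate 2. Slc32a1 has a single annotated transcript.

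Some of these genes share their ground with others, and whether counting used the strand is not given in the sources used here. Slc32a1 lies head to head with Gm14204, a noncoding transcript of the minus strand (chromosome 2, 158595472 to 158610723). Gm14204 stood at 18.3 and 17.9 TPM, above Slc32a1 in both libraries. The RefSeq promoter table (GRCm38.p6) gives the bases between them, and the capitals mark the 43 bases that part the 2 annotated starts (chr2:158610664-158610766, plus strand).
Slc32a1, upstream of the start: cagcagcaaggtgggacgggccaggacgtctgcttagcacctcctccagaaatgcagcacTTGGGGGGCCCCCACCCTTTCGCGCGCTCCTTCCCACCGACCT
Slc6a9 overlaps B4galt2, a galactosyltransferase gene of the opposite strand at 33.8 and 31.2 TPM. Slc6a9-212, a Slc6a9 transcript that lies wholly within the span of B4galt2, held 11 and 13.98 counts, or 10.8% and 12.6% of Slc6a9 TPM. The antisense Gad1os held 10 and 11 counts and the processed pseudogene Gad1-ps 0 and 1, against 1044 and 1176 counts for Gad1.

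Counts were then set against each other between the 2 pools, scaled over all annotated genes by TMM. With 1 library per pool there is no test across pools, and the 95% intervals cover counting error only. Slc6a5, with fewer than 10 counts in both, was left out. Of the other 7 genes, 0 differed 2-fold with an interval that left out equality, against 4.23% of 19885 genes so counted in either direction. Of these 7 genes, 4 were higher in replicate 1 beyond counting error (15.5% of all genes were) and 0 were lower (16.7% of all genes were). Their log2 ratio of replicate 1 over replicate 2 was 0.30 (0.23 to 0.38) for Gad2, 0.14 (0.08 to 0.21) for Slc17a6, 0.19 (0.07 to 0.31) for Gad1 and 0.40 (0.08 to 0.72) for Slc32a1. The intervals of Slc6a9 (0.00, -0.19 to 0.19), Slc17a7 (0.41, -0.34 to 1.16) and Slc17a8 (0.47, -0.19 to 1.13) held equality. The median over the 7 was 0.30, and over all genes tested -0.01. Scaled by the spike-ins instead, the same log2 ratios were 0.03 for Gad2, -0.13 for Slc17a6, -0.08 for Gad1, 0.13 for Slc32a1 and -0.27 for Slc6a9. The median of all genes moved to -0.283. The sign for Slc17a6 and Gad1 thus turned with the scaling, though Gad1 was then not beyond counting error. On that scale 0 of the 7 were higher in replicate 1 beyond counting error and 2, Slc17a6 and Slc6a9, were lower. Both ratios lay above the median of all genes. The share of all genes beyond counting error was not computed on that scale, so these counts cannot be set against it.

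Other marker lists also moved between the pools, and their part in these ratios was not tested. Of all genes, 15.5% were higher in replicate 1 and 16.7% in replicate 2 beyond counting error with TMM scaling. Those shares include genes with as few as 10 counts, and intervals narrow as counts rise. Pan-neuronal genes had a median log2 ratio of 0.14, with 8 of 9 higher in replicate 1 beyond counting error and 0 lower. They summed to 1964 TPM in replicate 1 and 1855 in replicate 2. Telencephalic genes, 8 of 10 of them higher and 2 lower, summed to 224.6 and 177.8 TPM. Diencephalic genes, 5 of 6 tested higher and 1 lower, summed to 574 and 361 TPM. Mesenchymal genes summed to 1001 and 1419 TPM, with 5 of 6 higher in replicate 2. Midbrain identity genes summed to 239 and 278 TPM, 2 of 6 higher in replicate 1 and 4 in replicate 2. The median log2 ratios of these 4 lists were 0.45, 0.54, -0.45 and -0.38 with TMM scaling, and 0.18, 0.27, -0.72 and -0.65 with spike-in scaling, where the pan-neuronal median turned to -0.13.

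**Figure D4:**
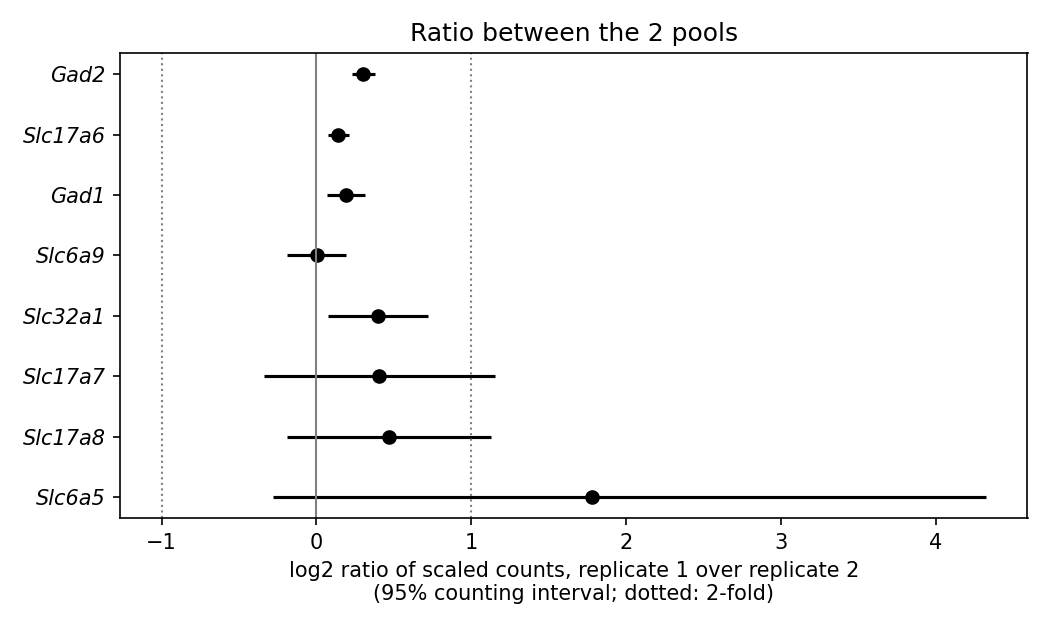
Log2 ratio of TMM-scaled counts, replicate 1 over replicate 2, for each of the 8 genes with its 95% counting interval; dotted lines mark 2-fold. The intervals of Gad2, Slc17a6, Gad1 and Slc32a1 lie above 0 and that of Slc6a5, with 8 and 3 counts, runs from -0.28 to 4.33; with spike-in scaling Slc17a6 and Gad1 turn to -0.13 and -0.08.

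The wider pathways were read from 10 lists with 49 genes, of which 42 were detected, with a median level of 30.2 TPM beside 4.47 over all protein-coding genes. Of 45 with enough counts, 0 were 2-fold higher in replicate 1 (1.78% of all genes) and 1 was in replicate 2 (2.45% of all genes). That gene was Slc18a3, the vesicular acetylcholine transporter, at 0.56 and 1.15 TPM (24 and 63 counts, log2 ratio -1.03). Beyond counting error, 11 of the 45 were higher in replicate 1 (15.5% of all genes) and 14 in replicate 2 (16.7% of all genes).

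For GABA, 5 of 6 genes of uptake and breakdown were detected. Slc6a12, the betaine and GABA transporter, was lowest at 0.15 and 0.29 TPM. Both chloride cotransporters that set the sign of the GABA response were detected. Slc12a2, which brings chloride into cells, stood at 5.97 and 6.60 TPM, and Slc12a5, which extrudes it from mature neurons, at 7.56 and 6.36. Their libraries overlapped, so neither stood above the other beyond the spread. Of the decarboxylases related to the GABA enzymes, Csad, which serves taurine synthesis, stood at 31.7 ± 0.615 TPM and Gadl1 at 0.13 ± 0.0424.

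For glycine, all 5 genes of serine and glycine synthesis and all 4 of the glycine cleavage system were detected, with medians of 59.2 and 53.5 TPM. Phgdh, the first enzyme of serine synthesis, led the former at 197 and 218 TPM, and Psph, which makes the last step, was lowest at 25.9 and 30.8. Dld led the latter at 109 and 113 TPM, and Gldc, which takes the carboxyl group from glycine, was lowest at 21.6 and 17.0. All 9 thus stood above both glycine transporters.

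For glutamate, 8 of 9 genes of glutamate and glutamine metabolism were detected, with a median of 78.6 TPM. Slc38a2, a neutral amino acid transporter that carries glutamine, had the highest mean, at 153 and 149 TPM, though the aminotransferase Got2 stood above it in replicate 2 (125 and 152 TPM), and the glutaminase Gls2 was lowest at 0.54 and 0.71. Of 5 plasma membrane glutamate transporters 4 were detected. Slc1a3, known from radial glia and astrocytes, led at 37.0 and 43.7 TPM. Slc1a7 had 0 counts in both, which does not exclude a low level. Of 4 vesicular transporters of other transmitters, 1 was detected: Slc18a2, which loads monoamines, at 11.2 and 14.8 TPM, with Slc17a9 lowest at 0.13 and 0.17.

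All 6 GABAergic selectors of the midbrain on the list used were detected, as were all 6 factors of midbrain glutamatergic neurons. All 6 erythroid genes and 5 of 6 sensory ganglion genes were detected too, and which cells held the factors was not tested. Of the 6 GABAergic selectors Gata3 led at 64.3 and 60.7 TPM and Tal1 was lowest at 7.35 and 7.72, with a median of 32.7 over the list. Of the 6 factors of glutamatergic neurons Neurog2, a proneural factor of progenitors, had the highest mean, at 119 and 65.1 TPM, though Pou4f1 (78.1 TPM) and Lhx9 (70.0 TPM) stood above it in replicate 2, and Pou4f2 was lowest at 3.02 and 2.98, with a median of 53.3. Beyond counting error, 1 GABAergic selector was higher in replicate 1 and 3 in replicate 2, while 4 glutamatergic factors were higher in replicate 1 and 0 in replicate 2 (15.5% and 16.7% of all genes). These counts are with TMM scaling, where the median log2 ratios of the lists were -0.09 and 0.19. With spike-in scaling the medians were -0.36 and -0.08, so that of the glutamatergic list turned, and the difference between the lists was not tested.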

How the data were processed

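Per the labels, libraries started from 10 ng of RNA with ERCC spike-ins, oligo-dT priming and fragmentation by tagmentation. The authors deposited, for each library, gene and transcript tables against GENCODE M4 and M21 on mm10, and M21 was used for the values reported. Per the file headers they hold expected counts (estimated, unscaled) and TPM, scaled over all rows including spike-ins. They also hold posterior mean TPM, the bounds of its interval (a signal on the same scale, deposited by the authors) and the percent of a gene's TPM per transcript. The aligner, quantifier and strand setting are not given in the sources used here; column names are those of RSEM. Rows naming no gene took 4.02% and 3.38% of counts, and were left out of library sizes.

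Ratios used counts rounded to whole numbers, TMM scaling (edgeR 4.0.16, R 4.3.3), exact binomial (Clopper-Pearson) 95% intervals, at least 10 counts in a library and a 2-fold limit. Effective lengths were model lengths minus 99 bases. The libraries differed by 9.03 times the chi-square of sampling noise per degree of freedom, so they were counted as 2 samples. Libraries were also simulated with counting noise only, and the genes changed had at least 50 expected counts in each library. There 25 of 50 genes changed 2-fold were found, and 50 of 50 at 3-fold and at 4-fold. Of 19622 unchanged genes, 154 were counted as different. Intervals held the true ratio for 90% to 96% of the 50 genes at each fold. The real libraries differ by more than counting noise, so these rates do not carry over to them. Named were the 8 genes and the annotated genes that overlap or adjoin them, the highest, lowest and any called gene of each pathway list, and of the marker lists Otx2, Hoxa4 and Hoxb4; some genes that the rule takes are not reported here. Members and lists were chosen with earlier results of these data known. The levels per length of the longest protein-coding transcript were added after values had been seen; they were first computed with the transcript of the longest coding sequence, which gave other values for Slc17a7 and Slc6a9. Genes of like pattern were not sought, since 2 libraries of 1 group give no pattern. Gad1 sequences came from GENCODE M21 transcripts; RefSeq gave the Slc32a1 promoter.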

Additional observations from a re-analysis of the deposited data

How the results depend on the processing

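Of 103 values recomputed under another setting, 80 were counted as the same and 23 moved further than their spread. For the Gad1 level that spread was 0.120 TPM, made small by unequal model lengths. Counts of called genes and of detected pathway genes have no spread, and all were counted as the same. The latter went from 42 to 45 with a limit of 0.5 TPM. With annotation M4, Gad1 stood at 21.7 TPM, Gad2-202 at 52.1% and Slc17a6-201 at 100% of its gene. Posterior mean TPM gave 21.6 (Gad1), 0.11 (Slc6a5) and 10.2 (Slc6a9), with Slc6a9 at 98.9% of both glycine transporters, Slc6a9-202 at 29.4%, Slc17a6-201 at 92.5% and Slc17a8-201 at 65.7%. Rescaled without spike-ins, Gad1 was 22.7, Slc6a5 0.0658 and Slc17a6 47.4 TPM. Per length of the longest protein-coding transcript, an alternative chosen after seeing the data, Gad1 was 16.2, Gad2 24.5, Slc6a5 0.0399 and Slc6a9 6.41 TPM, and the Gad1 share 39.9%. With Gad1-206 counted as embryonic, also added afterwards, the embryonic share was 68.5%. Spike-in scaling gave log2 ratios of -0.078 (Gad1), 0.033 (Gad2), -0.27 (Slc6a9) and -0.13 (Slc17a6), a change of sign for Gad1, Slc6a9 and Slc17a6.

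Of the genes tested, 0 were called between the pools under each of 7 alternatives: 5 were tested with a minimum of 50 counts, 8 with no minimum and 7 in the others. Over all genes, 354 were called higher in replicate 1 and 487 in replicate 2 as reported, 217 and 873 with spike-in totals, 77 and 131 with a minimum of 50 counts, and 562 and 867 with a 1.5-fold limit. The causes were not tested. Leaving out either library gives the other one's value, as printed for each gene; the full-length Gad1-201 share ranged from 9.08% to 35.9%. Slc6a5, Slc17a7 and Slc17a8 rest on 3 to 43 counts, which limits their levels and transcript shares. No paired analysis was possible because both libraries belong to 1 group.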
